A study of Mus musculus with 50 samples.

Results

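The genes described here are 6 GABA receptor genes measured in synaptosomal RNA of mouse frontal cortex. They are Gabra2, Gabra3, Gabra4 and Gabra5, which encode alpha subunits of GABA-A receptors, Gabrb1, which encodes a beta subunit, and Gabbr1, which encodes a subunit of the GABA-B receptor. They were taken by symbol, with the probe of highest mean signal for each gene, and are 6 of the 18120 gene symbols on the array. Only 3 of them, Gabra3, Gabrb1 and Gabbr1, gave a signal above background on at least 9 arrays and were tested. No transporter of GABA is among the 6, so uptake genes are given from a separate pathway list.

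GABA is the main inhibitory transmitter of the cortex. GABA-A receptors are pentameric chloride channels that open when GABA binds between an alpha and a beta subunit. The choice of subunits affects their kinetics and whether they sit at synapses or outside them. GABA-B receptors are coupled to G proteins, sit on nerve terminals and on dendrites, and need Gabbr1, which binds GABA, together with Gabbr2, which carries the receptor to the membrane.

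The series held 50 arrays, each from synaptosomes (resealed nerve terminals with attached membranes, separated from homogenized tissue) of 1 mouse aged 17 to 21 days on a CD1 background. The knockouts carried a constitutive loss of Sod2, which encodes the superoxide dismutase of mitochondria, in all tissues rather than in neurons alone. The compound given was a salen manganese antioxidant, which the titles call EUK8 and the treatment field EUK189. Groups were 10 Sod2 knockouts given 30 mg/kg (high-dose knockouts), 10 Sod2 knockouts given 1 mg/kg (low-dose knockouts), 9 untreated wild types, 11 wild types given 1 mg/kg (low-dose wild types) and 10 wild types given 30 mg/kg (high-dose wild types). All knockouts had received the compound, so no comparison isolates the loss of Sod2 without it.

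The arrays lay on 7 chips, of which 1 held 2 arrays and no knockout. Array medians ran from 54.1 to 78.0 signal units, and 10198 to 12475 of 25697 probes per array were above background. The Sod2 probe was above background on all 50 arrays and was 0.41 ± 0.10 (SE) log2 units higher in knockouts than in wild types at the low dose (limma adjusted p = 0.00119). At the high dose this difference was 0.24 ± 0.09 and did not pass (adjusted p = 0.271). The sources do not place that probe inside or outside the deleted part, so it does not check the genotype labels. Cortical markers were present, with 10 of 11 glutamatergic and 12 of 15 interneuron markers on the array measured, while Neurod6, Gad2, Lhx6 and Dlx2 were not well above background on any array. All 12 astrocyte markers and all 12 microglia markers were measured, so the preparations also held RNA of cells other than neurons.

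Of the 6 genes, Gabra2, Gabra4 and Gabrb1 are neighbours on mouse chromosome 5, in the order Gabrg1, Gabra2, Cox7b2, Gabra4, Gabrb1. Gabra5 lies next to Gabrg3 on chromosome 7, Gabra3 between Magea10 and Gabrq on the X chromosome, and Gabbr1 between Mog and Olfr90 on chromosome 17. All 6 matched RefSeq promoter windows (GRCm38.p6, 250 bases before to 50 after an annotated start, 8 windows in all). The windows of Gabrb1 and Gabra4 are shown because the annotated starts of these neighbours lie 387 bases apart on opposite strands, while Gabrb1 was measured and Gabra4 was not. The window of Gabbr1 is shown beside them because Gabbr1 was the other gene with a call. Gabrb1 is at chr5:71657671-71657970 on the plus strand, Gabra4 at chr5:71658259-71658558 on the minus strand and Gabbr1 at chr17:37045716-37046015 on the plus strand. Capitals mark GC boxes (GGGCGG or its complement CCGCCC), and all are read 5′ to 3′.
Gabrb1: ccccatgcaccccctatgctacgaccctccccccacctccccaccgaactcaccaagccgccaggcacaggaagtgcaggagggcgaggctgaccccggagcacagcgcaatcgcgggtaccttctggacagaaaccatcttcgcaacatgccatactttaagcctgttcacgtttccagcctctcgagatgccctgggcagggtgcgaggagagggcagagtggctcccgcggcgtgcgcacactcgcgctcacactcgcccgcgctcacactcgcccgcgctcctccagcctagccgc
Gabra4: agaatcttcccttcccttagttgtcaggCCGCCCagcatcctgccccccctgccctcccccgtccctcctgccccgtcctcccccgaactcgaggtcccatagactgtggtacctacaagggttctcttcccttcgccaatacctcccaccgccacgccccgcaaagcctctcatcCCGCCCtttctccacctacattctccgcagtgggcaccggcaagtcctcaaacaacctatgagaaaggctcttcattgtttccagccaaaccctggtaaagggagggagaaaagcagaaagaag
Gabbr1: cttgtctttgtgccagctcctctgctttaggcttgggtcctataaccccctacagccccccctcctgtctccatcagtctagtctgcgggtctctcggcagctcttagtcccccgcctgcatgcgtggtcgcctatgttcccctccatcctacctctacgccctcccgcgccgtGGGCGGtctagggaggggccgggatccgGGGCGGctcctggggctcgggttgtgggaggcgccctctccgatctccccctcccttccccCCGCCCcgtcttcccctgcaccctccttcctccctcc
The Gabrb1 window held 25 CpG dinucleotides, 66.0% G and C and no GC box. The Gabra4 window held 12 CpG dinucleotides, 58.7% G and C and 2 GC boxes, and the Gabbr1 window 18 CpG dinucleotides, 67.3% G and C and 3 GC boxes. Over 32851 RefSeq windows of this length the medians were 7 CpG dinucleotides and 52.7% G and C, and 35.66% held a GC box on either strand. The cAMP response element TGACGTCA (in 1.79% of windows), the antioxidant response element TGACNNNGC (12.39%) and the E-box CACGTG (7.15%), searched on both strands with no overlap between motifs required or barred, were in none of the 8 windows of the 6 genes. Gabrb1 has another annotated start, 41624 bases from that of Gabra4, and which start these samples used was not measured.

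The alpha subunit probes were dim. The Gabra2 probe was above background on 1 array, a high-dose knockout, and the Gabra5 probe on none of 50. The Gabra4 probe was above background on 1 of 10 high-dose knockouts, 2 of 10 low-dose knockouts, 1 of 9 untreated wild types, 1 of 11 low-dose wild types and 1 of 10 high-dose wild types. These 3 genes were therefore not well above background in any group, and no fold or test is given for them. Gabra3 was just above background, on 48 of 50 arrays, with 1 high-dose knockout and 1 untreated wild type below it. The probes of Gabrb1 and Gabbr1 were above background on all 50 arrays. A further Gabbr1 probe was above background on only 1 array and gives no second reading of that gene.

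**Figure D1:**
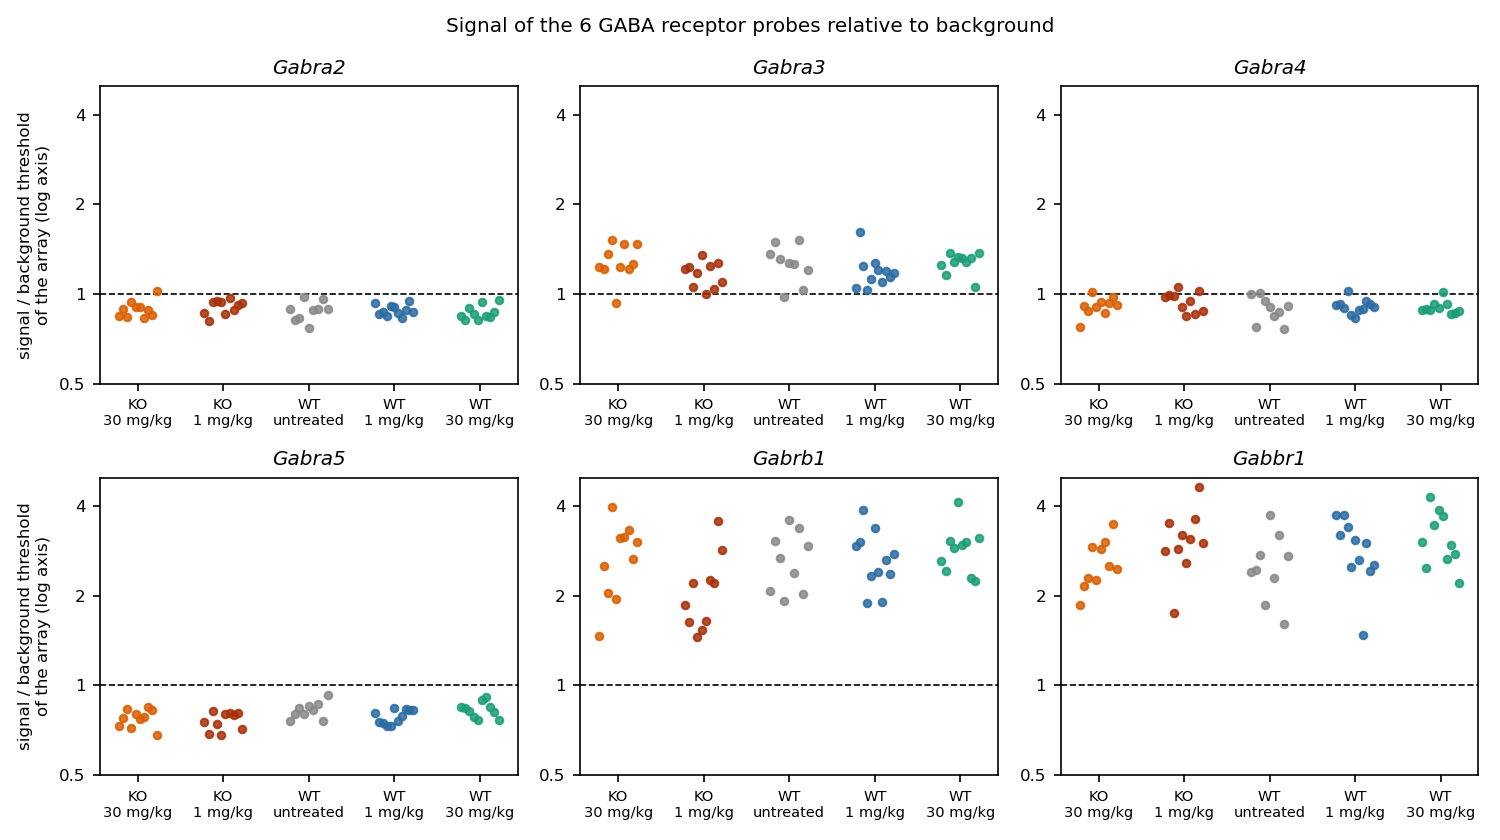
Deposited signal of each of the 6 probes divided by the background threshold of its array (log axis, 1 point per array, 5 groups). Gabra2, Gabra4 and Gabra5 sit around or below the dashed line at 1 and pass it on 1, 6 and 0 arrays, while Gabrb1 and Gabbr1 are above it on all 50.

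Gabrb1, the beta 1 subunit, was lower in low-dose knockouts than in low-dose wild types and was higher in high-dose than in low-dose knockouts. Its normalized log2 level had a lowest, median and highest value of 6.26, 7.35 and 7.69 in high-dose knockouts, and of 5.99, 6.75 and 7.86 in low-dose knockouts. In wild types these values were 6.49, 7.15 and 7.67 untreated, 6.79, 7.30 and 7.75 at the low dose and 6.94, 7.28 and 7.84 at the high dose. Low-dose knockouts had the lowest median of the 5 groups and the widest range, and the highest of them stood above every wild type, so the groups overlapped.

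At the low dose Gabrb1 fell by 0.53 ± 0.16 (SE) log2 units in knockouts relative to wild types, a 1.44-fold lower level (95% interval −0.84 to −0.21, limma adjusted p = 0.0119). The mean was 6.81 ± 0.52 in 10 knockouts and 7.29 ± 0.32 in 11 wild types (SD), and 9 of 10 knockouts were below the wild-type mean. It was the 1 called gene of the 3 tested, where 20.9% of all 13466 tested probes were called, 10.8% as rising and 10.1% as falling. Within chips the difference was negative on 5 of 6, from −0.99 to 0.11. Differences within chips rest on only 1 to 3 arrays of each group, here and below. The exception was chip 7, whose 3 low-dose knockouts, at 7.17, 7.22 and 7.86, were the 3 highest of their group. Without that chip the difference was −0.71 (adjusted p = 0.00242).

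At the same contrast Gabbr1 was 0.11 ± 0.19 (adjusted p = 0.745) and Gabra3 −0.07 ± 0.11 (adjusted p = 0.746), neither beyond its spread. The fitted changes of Gabrb1 and Gabbr1 thus had opposite signs, but only that of Gabrb1 passed, and the difference between the genes was not tested. The sign of Gabbr1 was not stable. Within chips it was positive on 3 and negative on 3, from −0.44 to 0.72. Without chip 7 Gabbr1 was −0.04 (limma adjusted p = 0.934), the same sign as Gabrb1.

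Between doses in knockouts, Gabrb1 rose by 0.42 ± 0.15 (SE) log2 units at the high over the low dose, 1.34-fold (95% interval 0.12 to 0.73, limma adjusted p = 0.0431), with 9 of 10 high-dose knockouts above the low-dose mean. Among the 3 tested genes this was the 1 call, against 20% of all tested probes, 9.33% rising and 10.6% falling. The call was near the threshold. It was lost when any 1 of 9 arrays was left out (high-dose knockouts 2, 4, 6, 7 and 8, low-dose knockouts 23, 25, 26 and 27), with the change at 0.32 to 0.51 and the adjusted p at 0.0118 to 0.133 over 20 such fits. Within chips it was positive on 5 of 6, from −0.07 to 0.87, and without chip 7 it was 0.61 (adjusted p = 0.0142).

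Gabbr1, the GABA-binding subunit of the GABA-B receptor, stood on the other side of 0 in this comparison. Its log2 level had a lowest, median and highest value of 6.77, 7.15 and 7.85 in high-dose knockouts and of 6.44, 7.48 and 8.28 in low-dose knockouts. The change was −0.39 ± 0.19 (SE), with an unadjusted p of 0.0455 but an adjusted p of 0.147, and 9 of 10 high-dose knockouts lay below the low-dose mean. It passed only when low-dose knockout 24, the lowest of its group at 6.44, was left out (adjusted p = 0.0329). Gabra3 was 0.18 ± 0.11 (adjusted p = 0.250), so 2 of the 3 tested genes had positive changes and 1 a negative one.

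**Figure D2:**
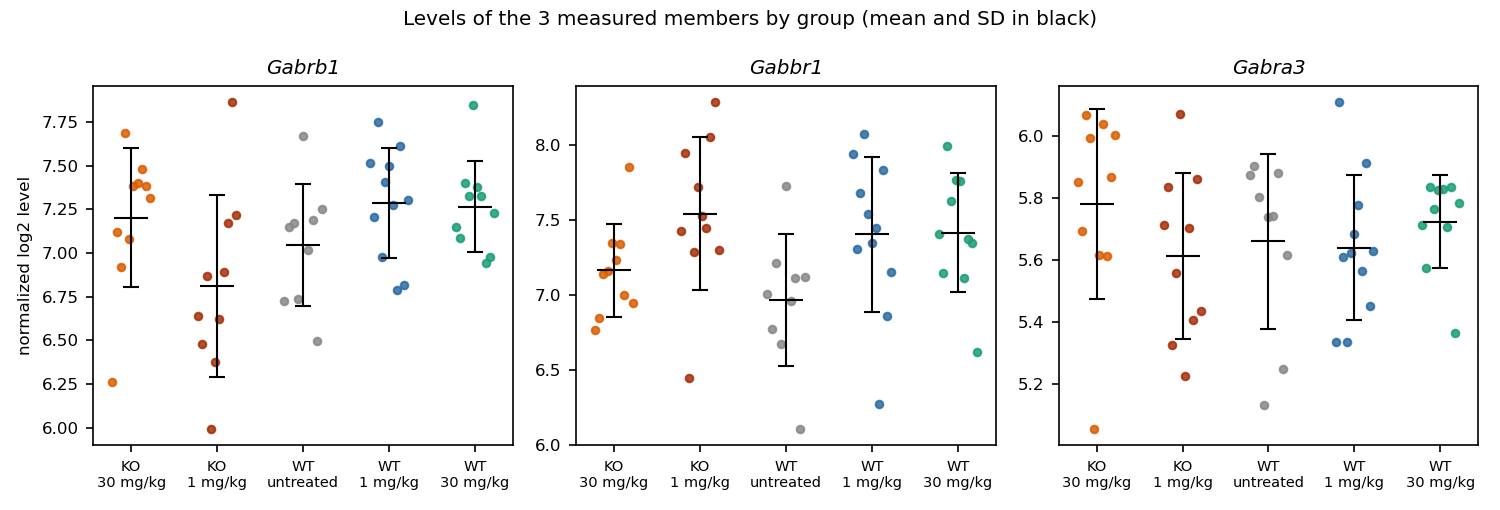
Normalized log2 level of Gabrb1, Gabbr1 and Gabra3 on each array (points) with the group mean and SD (black), knockouts left of wild types. Mean Gabrb1 is lowest in low-dose knockouts (6.81) and mean Gabbr1 is highest there (7.54), with points of all groups overlapping.

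Against untreated wild types, which had no compound and an intact Sod2, Gabbr1 was higher in low-dose knockouts. Its lowest, median and highest log2 levels were 6.44, 7.48 and 8.28 in low-dose knockouts, against 6.11, 7.01 and 7.73 in untreated wild types. Gabbr1 rose by 0.57 ± 0.20 (SE), 1.49-fold (95% interval 0.17 to 0.98, limma adjusted p = 0.0235), and 9 of 10 low-dose knockouts were above the untreated mean, although the groups overlapped. The call was 1 of 3 tested genes, where 32.1% of all tested probes were called, 15.8% as rising and 16.3% as falling. Within chips it was positive on 5 of 6, from −0.35 to 1.05, and without chip 7 it no longer passed (0.46, adjusted p = 0.0973). It was also lost without untreated wild type 46 (6.67) or 50 (6.11), with the adjusted p at 0.0036 to 0.0591 over 19 fits that each left out 1 array.

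In the same comparison Gabrb1 was −0.26 ± 0.16 (adjusted p = 0.226), so the signs of Gabbr1 and Gabrb1 again differed and 1 of them passed. Gabra3 was −0.05 (adjusted p = 0.791). In high-dose knockouts over untreated wild types 0 of 3 genes were called by limma and 0 had an unadjusted p under 0.05, against 0.995% of all tested probes called and 15.1% at an unadjusted p under 0.05. There Gabrb1 was 0.16 ± 0.16, Gabbr1 0.19 ± 0.20 and Gabra3 0.14 ± 0.11. The comparisons with low-dose knockouts share those arrays, and the comparisons with untreated wild types share theirs, so their values are not independent.

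Between knockouts and wild types at the high dose none of the 3 genes passed. Gabrb1 was −0.08 ± 0.16 (95% interval −0.39 to 0.23, limma adjusted p = 0.911), Gabbr1 −0.24 ± 0.19 (−0.62 to 0.14, adjusted p = 0.704) and Gabra3 0.07 ± 0.11 (adjusted p = 0.879). None had an unadjusted p under 0.05, and of all tested probes 0.579% were called and 11.2% had such an unadjusted p. The difference between the genotype effects at the high and the low dose was 0.44 ± 0.22 for Gabrb1 (unadjusted p = 0.0481, adjusted p = 0.306), −0.35 ± 0.27 for Gabbr1 (adjusted p = 0.560) and 0.14 for Gabra3 (adjusted p = 0.730). With 0 of 3 genes called and 1 at an unadjusted p under 0.05, against 2.96% of probes called and 16% at such an unadjusted p, the genotype difference of Gabrb1 was not shown to depend on dose.

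In wild types no gene passed in any comparison, and no probe of the whole array did. At the low dose over untreated, Gabbr1 was 0.46 ± 0.19 (unadjusted p = 0.0204, adjusted p = 0.267), positive on 6 of 6 chips, and Gabrb1 0.26 ± 0.16 (adjusted p = 0.469), also positive on 6 of 6 chips. At the high dose over untreated, Gabbr1 was 0.43 ± 0.20 (unadjusted p = 0.0338, adjusted p = 0.732) and Gabrb1 0.24 ± 0.16 (adjusted p = 0.757). At the high over the low dose Gabrb1 was −0.02 ± 0.16 and Gabbr1 −0.03 ± 0.19, with 95% intervals of −0.33 to 0.29 and −0.42 to 0.35. The counts at an unadjusted p under 0.05 were 1, 1 and 0 of 3 genes in these comparisons, against 13.6%, 6.74% and 3.9% of all tested probes, and limma called 0% of them in each. Untreated wild types had the lowest mean Gabbr1 of the 5 groups, and Gabbr1 was above them in all 4 treated groups, of which 1 passed.

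**Figure D3:**
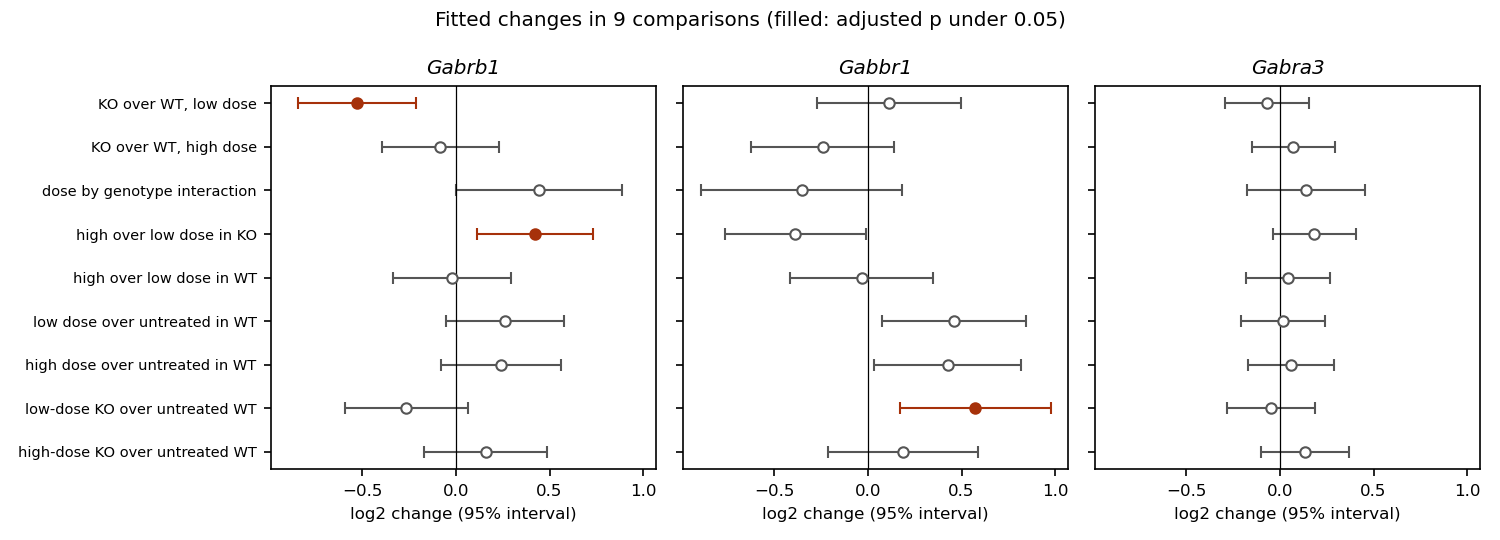
Fitted log2 change with its 95% interval for Gabrb1, Gabbr1 and Gabra3 in the 9 comparisons, filled where the adjusted p was under 0.05. Of 27 intervals 3 are filled, Gabrb1 in knockouts over wild types at the low dose (−0.53), Gabrb1 in high-dose over low-dose knockouts (0.42) and Gabbr1 in low-dose knockouts over untreated wild types (0.57).

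The group means in this paragraph were not adjusted for chip. Put in order of these means, Gabrb1 ran from low-dose wild types (7.29) through high-dose wild types (7.26), high-dose knockouts (7.20) and untreated wild types (7.05) to low-dose knockouts (6.81). Gabbr1 ran from low-dose knockouts (7.54) through high-dose wild types (7.41), low-dose wild types (7.40) and high-dose knockouts (7.16) to untreated wild types (6.96). Low-dose knockouts were thus at opposite ends of the orders. Gabra3 ran from high-dose knockouts (5.78 ± 0.31) to low-dose knockouts (5.61 ± 0.27), and its group means spanned less than the SD within 4 of the 5 groups. No neighbours in these orders differed beyond their spread for any of the 3 genes, with the smallest adjusted p at 0.226, for Gabrb1 in low-dose knockouts over untreated wild types. The tests between neighbours used the fit with chip. In wild types that fit gave −0.03 for Gabbr1 at the high over the low dose, against the order of the means. For Gabra3 it gave 0.02 at the low dose over untreated, also against that order.

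**Figure D4:**
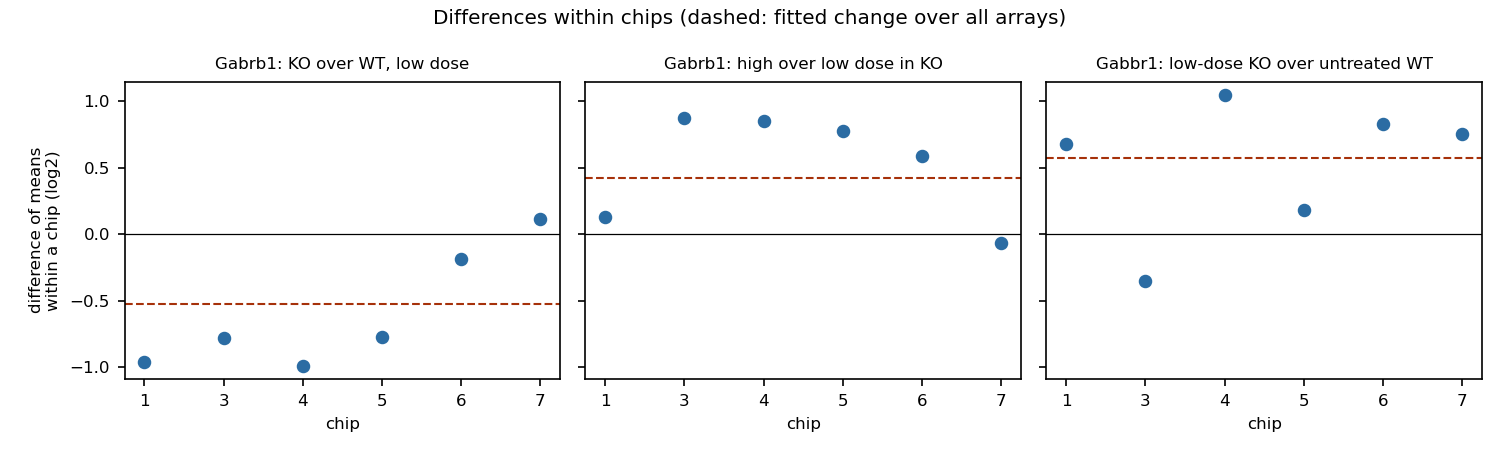
Difference of the group means within each chip that held both groups (points, log2 units) and the fitted change over all arrays (dashed), for the 3 calls. Each point rests on 1 to 3 arrays of each group. Gabrb1 in knockouts over wild types at the low dose is below 0 on 5 of 6 chips, and both Gabrb1 between knockout doses and Gabbr1 in low-dose knockouts over untreated wild types are above 0 on 5 of 6.

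Across the 50 arrays the levels of Gabrb1 and Gabbr1 had a Pearson correlation of 0.38, those of Gabrb1 and Gabra3 one of 0.22 and those of Gabbr1 and Gabra3 one of 0.16, as a description of arrays that share chips, groups and normalization. All 3 were positive, including that of Gabrb1 with Gabbr1. Among 9732 other named genes, those most like Gabrb1 were Ntm, a neuronal adhesion protein (r = 0.69), Kcna2, an axonal potassium channel (0.68), and Ccdc47, a protein of the endoplasmic reticulum (0.68). Those most like Gabbr1 were the fatty acid desaturase Fads2 (0.87), the glycerol phosphate acyltransferase Gpam (0.86) and Fgfr3, a growth factor receptor on the astrocyte marker list (0.85). Those most like Gabra3, at lower values, were Rims1, an active zone scaffold (0.48), Nrn1, a neuronal membrane protein (0.47), and Ciz1, a nuclear protein (0.47).

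Of 13 other GABA receptor subunits, 11 had a probe and 2 were tested, Gabrd and Gabrg1. Gabrd, the delta subunit of extrasynaptic receptors, was lower in low-dose knockouts than in untreated wild types, at −1.13 ± 0.27 (SE, limma adjusted p = 0.00104). Its lowest, median and highest log2 levels were 6.03, 6.82 and 7.73 in low-dose knockouts and 6.90, 8.03 and 8.51 in untreated wild types. Those of treated wild types were 5.44, 7.23 and 8.48 at the low dose and 6.54, 7.56 and 8.06 at the high dose. All 10 low-dose knockouts were below the untreated mean, and the groups overlapped. Between knockout doses Gabrd rose by 0.90 ± 0.25 at the high over the low dose (adjusted p = 0.00865), with a mean log2 level of 7.65 ± 0.39 in high-dose and 6.79 ± 0.62 in low-dose knockouts (SD). Both Gabrd probes passed in these comparisons. Between genotypes at the low dose limma called neither Gabrd nor Gabrg1. There Gabrd was −0.32 ± 0.26 (adjusted p = 0.430) by its brightest probe and −0.42 ± 0.20 by the other (unadjusted p = 0.0422, adjusted p = 0.138). Gabrg1, a gamma subunit, passed in none of the 9 comparisons and was 0.12 ± 0.09 in low-dose knockouts over untreated wild types (adjusted p = 0.325).

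Of 8 genes of GABA synthesis, vesicle loading, uptake and breakdown, 7 were tested. Against untreated wild types, low-dose knockouts had 1 rise and 3 falls among the 7, at a median of −0.04, where 15.8% of all tested probes rose and 16.3% fell. The falls were Slc32a1, the vesicular GABA transporter (−1.01 ± 0.23, limma adjusted p = 0.000737), Gad1, which makes GABA from glutamate (−0.44 ± 0.12, adjusted p = 0.0031), and Slc6a13, a GABA transporter known from meninges and liver (−0.40 ± 0.12, adjusted p = 0.00699). The Slc6a13 probe was above background on only 2 of 10 low-dose knockouts, 6 of 9 untreated and 7 of 11 low-dose wild types, so the sizes of its differences rest on levels near the floor. The rise was Aldh5a1, which breaks down a product of GABA in mitochondria (0.36 ± 0.11, adjusted p = 0.00918, with another Aldh5a1 probe not passing). Abat, the GABA transaminase, did not pass by its brightest probe (0.31, adjusted p = 0.113), while a dimmer probe did (0.90, adjusted p = 0.0419).

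Between knockout doses 1 of the 7 rose and 1 fell, not far from the 20% of all tested probes called. Gad1 rose by 0.31 ± 0.11 log2 units at the high over the low dose (limma adjusted p = 0.0411), a call lost in 5 of 13 alternatives (adjusted p up to 0.0955), and Aldh5a1 fell by 0.30 ± 0.10 (adjusted p = 0.03). The Aldh5a1 call was lost in 2 of 13 alternatives (adjusted p up to 0.101). Another Aldh5a1 probe was at −0.09 and did not pass (adjusted p = 0.460). Between genotypes at the low dose 1 of 7 passed, where 20.9% of all tested probes were called. It was Slc6a13 at −0.32 ± 0.11 (adjusted p = 0.0401), a call lost in 10 of 12 alternatives (−0.34 to −0.16, adjusted p 0.0365 to 0.139). The glial transporter Slc6a11 and the betaine and GABA transporter Slc6a12 passed in no comparison.

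Of 24 genes of inhibitory synapse anchoring, receptor trafficking and chloride transport, 14 were tested. Knockouts over wild types at the low dose had 1 rise and 2 falls, 3 of 14 and thus near the 20.9% of all tested probes called. Gphn, the gephyrin scaffold that holds GABA-A receptors at synapses, rose by 0.42 ± 0.09 (limma adjusted p = 0.00043), and all 3 of its probes passed. Insyn1, a protein of inhibitory postsynaptic sites, was −0.68 ± 0.09 (adjusted p = 2.11e-07), with 5.93 to 6.62 in low-dose knockouts and 6.66 to 7.38 in low-dose wild types, ranges that did not overlap. Iqsec3, an exchange factor that binds gephyrin, was −0.64 ± 0.12 (adjusted p = 6.61e-05).

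The same 3 genes passed between knockout doses with the sign turned, Gphn at −0.38 ± 0.09 (limma adjusted p = 0.00151), Insyn1 at 0.48 ± 0.09 (adjusted p = 0.000113) and Iqsec3 at 0.47 ± 0.12 (adjusted p = 0.00304). Both comparisons share the low-dose knockouts, so the turned signs are not separate evidence. For Gphn the dose by genotype interaction itself passed, at −0.46 ± 0.13 (adjusted p = 0.0324), a call lost in 3 of 13 alternatives (adjusted p up to 0.138). Against untreated wild types, 2 of the 14 rose and 6 fell in low-dose knockouts, beside 15.8% rising and 16.3% falling over all tested probes. Gphn was 0.40 ± 0.09 (adjusted p = 0.00102) and Gabarapl2, of the GABARAP family of trafficking proteins, 0.21 ± 0.07 (adjusted p = 0.0207). The Gabarapl2 call was lost in 4 of 13 alternatives, at 0.04 (adjusted p = 0.780) under median scaling. The falls were Insyn1 (−0.75), Iqsec3 (−0.85), Nlgn2, an adhesion protein of inhibitory synapses (−0.72), Slc12a2, which carries chloride into cells (−0.48), Slitrk3, another adhesion protein (−0.48), and Zdhhc3, an enzyme that palmitoylates proteins (−0.45), with adjusted p between 6.01e-08 and 0.0154. The Slitrk3 probe was above background on 3 of 10 low-dose knockouts and 9 of 9 untreated wild types, so its size rests on levels near the floor. Slc12a5, which carries chloride out of neurons, passed in none of the 9 comparisons.

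**Figure D5:**
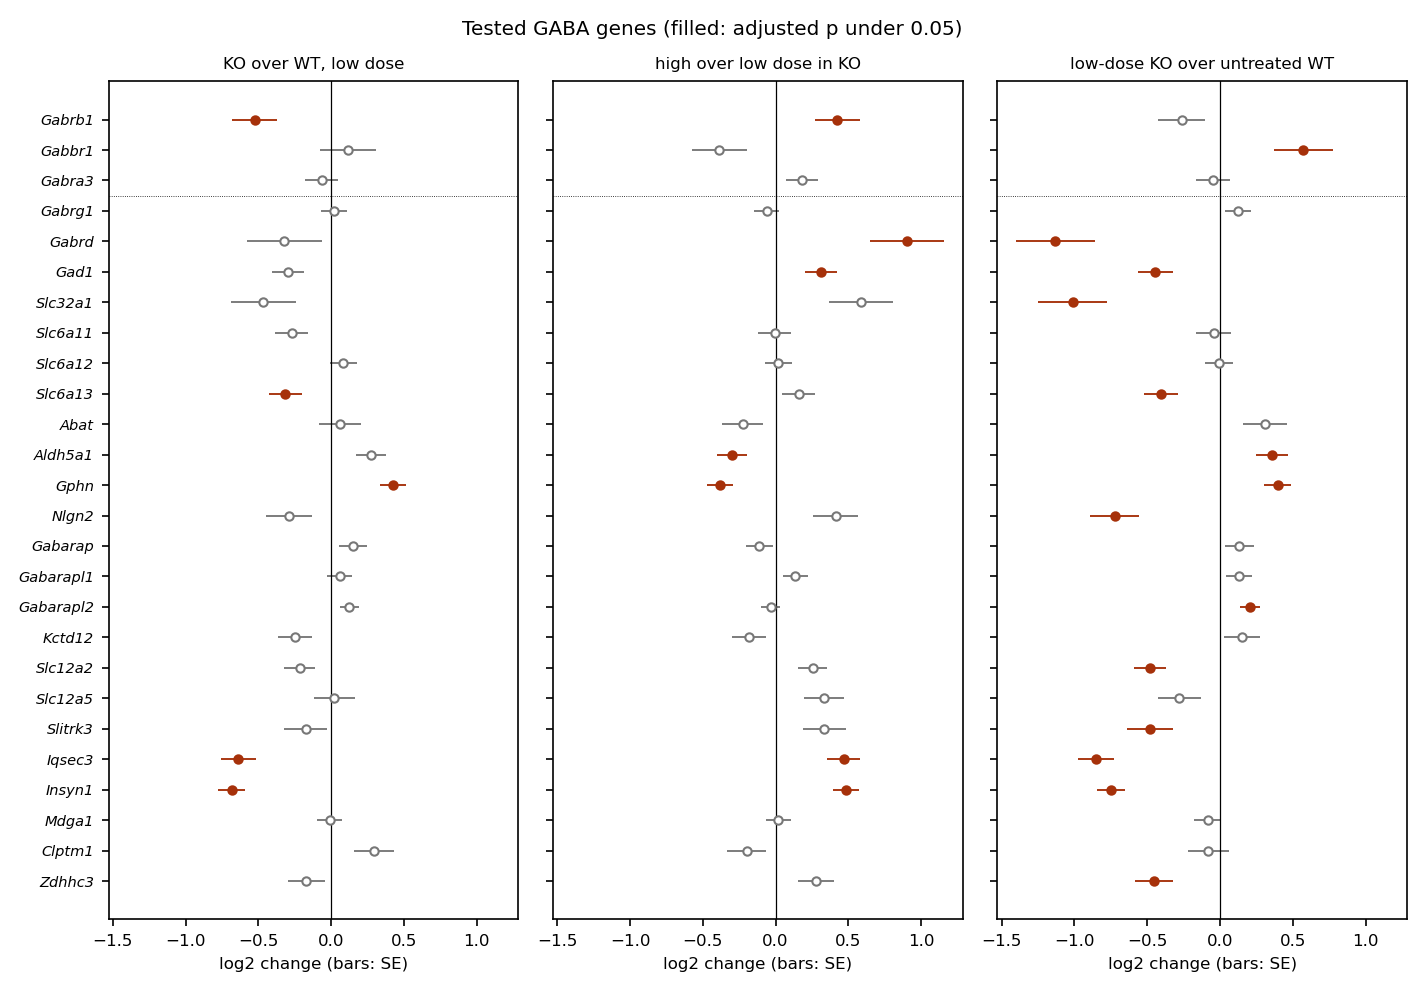
Fitted log2 change ± SE of the 3 tested genes Gabrb1, Gabbr1 and Gabra3 (top) and of the tested genes of 3 GABA pathway lists in 3 comparisons, filled where the adjusted p was under 0.05. In low-dose knockouts over untreated wild types filled points lie on both sides of 0, from Gabrd (−1.13) to Gabbr1 (0.57).

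Cell type marker lists are given beside these results. At the low dose, in knockouts over wild types, where Gabrb1 fell, 7 of 10 tested glutamatergic markers fell (median −0.43) and 3 of 12 interneuron markers fell (median −0.38), while 3 of 12 astrocyte markers rose and 3 fell. Of the other lists, 3 of 10 oligodendrocyte, 5 of 12 microglia and 0 of 8 striatal markers fell. Over all tested probes 10.8% rose and 10.1% fell. The summed linear level of the 12 interneuron markers had a lowest, median and highest value of 1730, 2444 and 3693 in low-dose knockouts and of 2158, 3136 and 5512 in low-dose wild types. That of the 10 glutamatergic markers was 4617, 5856 and 8037 in low-dose knockouts and 5916, 8946 and 10975 in low-dose wild types. These sums overlapped between the groups. Camk2a, a kinase of excitatory neurons (−0.60), and Pvalb, the parvalbumin of fast-spiking interneurons (−0.66), were among the falls. Gad1, Gad2 and Slc32a1 of the interneuron list are also on the list of GABA synthesis and uptake.

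Between knockout doses, where Gabrb1 rose, 5 of 10 glutamatergic markers (median 0.39) and 9 of 12 interneuron markers (median 0.58) rose and none of either list fell, and 2 of 12 astrocyte markers rose and 4 fell (median −0.16). There 4 of 8 striatal and 1 of 10 oligodendrocyte markers rose and limma called 0 of 12 microglia markers (2 at an unadjusted p under 0.05), beside 9.33% rising and 10.6% falling over all tested probes. In low-dose knockouts over untreated wild types, where Gabbr1 rose, 6 of 12 astrocyte markers rose and 1 fell (median 0.39), 10 of 12 interneuron markers fell (median −0.79) and 7 of 10 glutamatergic markers fell (median −0.62). The summed level of the 12 astrocyte markers had a lowest, median and highest value of 20557, 27573 and 36513 in low-dose knockouts and of 20069, 23339 and 27448 in untreated wild types, which overlapped. Of the other lists, 5 of 10 oligodendrocyte and 4 of 8 striatal markers fell in that comparison, and 3 of 12 microglia markers rose and 1 fell, beside 15.8% rising and 16.3% falling over all tested probes. How far these shifts bear on the values of Gabrb1, Gabbr1 and the pathway genes was not tested. In such bulk RNA, fewer cells or terminals of a type and less RNA in each cannot be told apart.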

How the data were processed

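RNA of 50 synaptosome samples, 1 array per mouse, was hybridized to Illumina MouseRef-8 bead chips after 1 round of amplification, per the labels and the series' design text. The deposited table gives, as its headers name it, an average signal (an intensity, not normalized) for 25697 probes per array. The authors' processed log2 values, deposited beside it, correlated with the log2 signal at 0.9985 or more on every array and were used as an alternative. The software behind these values was not given in the sources used here.

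In limma 3.58.1 under R 4.3.3, normexp background correction used every probe (offset 16). Arrays were then quantile normalized and log2 transformed. A probe was above background where it exceeded the lower peak of its array (48.4 to 70.7) by 1.645 SD, and 13466 probes of 10093 genes above it on at least 9 arrays were tested. Intensities near background are compressed, so fold changes of dim probes such as Gabra3 are understated. The number of arrays limits the precision.

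One limma model with group and chip covered all 50 arrays (39 residual degrees of freedom). The p values were adjusted by Benjamini-Hochberg over all tested probes and called under 0.05. Symbols of 7082 probes were updated, and 95.8% of probes had a symbol in the RefSeq table.

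The 6 genes and the lists were chosen with earlier results of these data known. All 6 were named, with called genes of 3 pathway lists, the 3 genes most like each tested gene by Pearson correlation, and up to 2 called genes of a marker list. A gene with several probes was read by its brightest. The scripts were tested on simulated arrays. Alternatives changed the chip term, background correction, normalization, filter, arrays in the fit, weights and probe. Chips came from the labels. A few genes of the lists are not reported here and were left out of every list count.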

Additional observations from a re-analysis of the deposited data

Results flagged for a closer look

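Low-dose wild types, with 11 arrays, were not tested for an array that stands apart. Of 12 combinations of gene and other group tested for such an array, 3 had one, where chance gives about 1 in 20. Gabra3 in high-dose knockout 5 had a log2 level of 5.06, with the next at 5.61. Gabrb1 in high-dose wild type 15 had 7.84, with the next at 7.40, and Gabbr1 in high-dose knockout 9 had 7.85, with the next at 7.34. The genotype effect on Gphn differed between doses by a test of the difference itself, an interaction of −0.46 (limma adjusted p = 0.0324). That call was lost with median scaling, with no filter and without the 5 dimmest arrays (adjusted p up to 0.138).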

How the results depend on the processing

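At the low dose, Gabrb1 in knockouts over wild types kept its direction and its call in 13 of 13 alternatives (−0.61 to −0.40, adjusted p 0.00467 to 0.0314), and the count of called genes stayed at 1 when each of 21 arrays was left out. The rise of Gabrb1 between knockout doses was less stable. The count of called genes there was 0 with a random or absent chip term, no background correction, an offset of 50, median scaling, no filter, only the arrays compared and the authors' processed values, and 0 to 2 when each of 20 arrays was left out, with the adjusted p of Gabrb1 at 0.0240 to 0.0840 over 13 alternatives. The count for low-dose knockouts over untreated wild types was 0 with only the arrays compared and without chip 7, and 0 to 1 when each of 19 arrays was left out. It was also 0 with the next brightest probe, which shows nothing about stability, since that Gabbr1 probe was above background on 1 array and was not tested. The Gabbr1 call in low-dose knockouts over untreated wild types was lost in 2 of 13 alternatives (0.36 to 0.58, limma adjusted p 0.012 to 0.147). Under median scaling the median change of all tested probes in that comparison was −0.08, against 0.01 in the main fit. With that scaling Gabrb1 passed there (−0.47, adjusted p = 0.0452), so a count of 1 need not be the Gabbr1 call. The cause was not tested. Leaving out single arrays and chip 7 was added after the data were seen.

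Among pathway genes, median scaling also took Gphn in low-dose knockouts over untreated wild types to 0.17 (adjusted p = 0.283) and Aldh5a1 there to 0.13 (adjusted p = 0.328).

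Signs turned only for changes near 0. Gabra3 at the low dose over untreated in wild types was −0.0203 with no chip term, −0.0166 with chip as a random effect, −0.0561 with median scaling, −0.0062 with array weights and −0.0197 without the 5 dimmest arrays. At the high over the low dose in wild types, Gabrb1 was 0.095 with median scaling, and Gabbr1 was 0.0105 with no chip term, 0.00594 with chip as a random effect, 0.0835 with median scaling and 0.00698 without the 5 dimmest arrays. Signs also turned when arrays were left out. Without chip 7, Gabbr1 in knockouts over wild types at the low dose went from 0.11 to −0.04. Without low-dose knockout 27, Gabra3 went from −0.07 to 0.005 in that comparison. In low-dose knockouts over untreated wild types it went from −0.05 to 0.02. Called probes between knockout doses numbered 1612 with only the arrays compared, against 2689.

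No paired analysis was possible because the replicate numbers in the labels run on through the series and are not shared between groups. Signal near background limits Gabra3, and left Gabra2, Gabra4 and Gabra5 without a reading.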
